A study of Danio rerio with 20 samples.

Results

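A set of 9 genes, made up of BMP pathway genes and dorsoventral repressors, was followed through all 20 libraries. It held 3 BMP ligands (bmp2b, bmp4, bmp7a), 3 secreted antagonists or regulators (chrd, nog1, szl) and 3 homeobox repressors (vox, vent, ved). They were taken by gene name from the 32105 named entries of the deposited table, and 9 of 9 were found, 8 of them by name. The gene chrd stands in the table under the older symbol chd and was matched by its gene ID, ENSDARG00000006110.

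BMP ligands are secreted dimers that bind paired type I and type II serine/threonine kinase receptors, which phosphorylate Smad proteins. In the zebrafish blastula and gastrula the signal is strongest on the ventral side, where it directs cells to ventral fates, and is limited dorsally by secreted antagonists from the organiser. The vox, vent and ved repressors act in parallel, keeping organiser genes such as gsc and chrd off outside the dorsal side. Many of these genes are first transcribed when the zygotic genome is switched on, during the maternal-to-zygotic transition.

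The embryos were of the wild-type AB strain, and every library came from embryos injected at the 1-cell stage. Knockdown embryos received translation-blocking morpholinos to both TUT4 and TUT7 (TUT47MO), to TUT7 alone (TUT7MO) or to TUT4 alone (TUT4MO), and control embryos received a control morpholino (ConMO). TUT4 and TUT7 are terminal uridylyltransferases, enzymes that append uridines to RNAs at the 3′ end, and the series asks how they bear on maternal mRNA decay. A translation block need not change the target mRNA, so target mRNA levels gave no check of the knockdown. Of 3 experimental sets, rs1a gave 12 libraries, 1 for each of the 4 morpholinos at 2, 4 and 6 hpf (hours post fertilization). TUT47MO and ConMO embryos were also sampled in set rs1b at 3 and 6 hpf and in set rs2 at 3 and 5 hpf, in 4 libraries per set. The libraries at 2 and 3 hpf are called early and those at 5 and 6 hpf late, so that each phase had 3 matched TUT47MO and ConMO pairs. Samples were whole embryos, and how many embryos or clutches went into each is not in the labels. The p-values therefore cover only the spread between these libraries, which may be technical.

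Libraries held 1.19e+07 to 3.28e+07 estimated reads. Levels are read counts per library size, in CPM, after TMM scaling over all 20 libraries and are not divided by gene length, so they are compared between libraries and not between genes. Differences are on the log2(CPM + 1) scale, which understates changes of genes with few reads, and were tested with limma at a Benjamini-Hochberg adjusted p of 0.05 over all genes. In set rs1a the single entry AC024175.4 took 40.7 to 47.4% of reads in 6 libraries, namely all 4 at 6 hpf and the TUT47MO and TUT7MO libraries at 4 hpf. The estimated reads of nog1 were fractional in 15 of 20 libraries and those of ved in 12 of 20, as RSEM gives where reads fit more than 1 entry. The values of these 2 genes therefore depend on how shared reads were divided. The other 7 genes had whole reads in all 20 libraries within 0.05 reads.

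All 9 genes were nearly silent in early control embryos and rose by the late stage. In late against early ConMO libraries, 9 of 9 were called higher, against 35.5% of the 17022 genes tested. Genes with very few early reads pass the count filter only through late libraries, so a higher call is nearly fixed for them. These include szl with 0 reads in every early library, and ved, nog1 and chrd with at most 4, 8 and 9. The share of higher calls among such genes was not counted, so the contrast with 35.5% does not set the 9 apart. The limma model compared 3 late with 3 early libraries with set as a block, and adjusted p-values of the 9 ran from 1.90e-07 for ved to 2.45e-05 for bmp4. In whole embryos, more cells of a type and more RNA per cell cannot be told apart.

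Among the ligands, bmp2b (ENSDARG00000041430), whose product pairs with Bmp7 in the ventralising signal of the zebrafish embryo, had 70.7, 89.7 and 105.9 CPM in late ConMO libraries of rs1a, rs1b and rs2, against 0.28, 0.32 and 0.21 CPM in the early ones. Its late minus early change was 6.12 (SE 0.21) and its adjusted p 7.16e-07. The ligand gene bmp4 (ENSDARG00000019995) had 56.6, 77.2 and 17.4 CPM late and 0.70, 1.43 and 0.81 CPM early, a change of 4.48 (SE 0.35) with an adjusted p of 2.45e-05. The late bmp4 level was lowest in rs2, the set sampled at 5 hpf. The third ligand gene, bmp7a (ENSDARG00000018260), had 243, 241 and 167 CPM late and 1.07, 1.23 and 1.26 CPM early, a change of 6.62 (SE 0.19). Early reads of bmp4 and bmp7a were few but present in all 8 early libraries, with 15 to 45 reads for bmp4 and 19 to 53 reads for bmp7a.

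Of the secreted regulators, chrd, which encodes the organiser antagonist Chordin that binds BMP ligands, had 216, 261 and 319 CPM in late ConMO libraries, against 0.094, 0.079 and 0.047 CPM in early ones. Its change was 7.94 (SE 0.19). The gene nog1 (ENSDARG00000058819), which encodes a Noggin antagonist, had 7.63, 8.69 and 5.39 CPM late and 0, 0.24 and 0.024 CPM early, and its change of 2.90 (SE 0.20) was the smallest of the 9. The gene szl (ENSDARG00000099637) encodes Sizzled, a ventrally made inhibitor of the proteases that cleave Chordin. It had 15.1, 24.5 and 20.3 CPM in late ConMO libraries and 0 reads in all 8 early libraries of any morpholino. Against a floor of 3 counts per library, its late mean of 19.99 CPM was at least 181-fold higher.

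The homeobox repressor vox (ENSDARG00000099761) had 226, 326 and 346 CPM in late ConMO libraries, against 0.14, 2.90 and 1.38 CPM in early ones. Its early level differed between the hours, with 3 reads at 2 hpf in rs1a and 73 and 58 reads at 3 hpf in rs1b and rs2. The related repressor vent (ENSDARG00000100483) had 96.9, 143.8 and 137.8 CPM late and 0, 0.52 and 0.24 CPM early. In the RefSeq gene table, whose assembly differs from that of the files, vent and vox are neighbours with 0 genes between them. The third repressor, ved (ENSDARG00000102389), had 356, 368 and 313 CPM late and 0.13, 0 and 0 CPM early, and its change of 8.37 (SE 0.16) was the largest of the 9. The changes of vox and vent were 7.07 (SE 0.24) and 6.67 (SE 0.18).

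**Figure D1:**
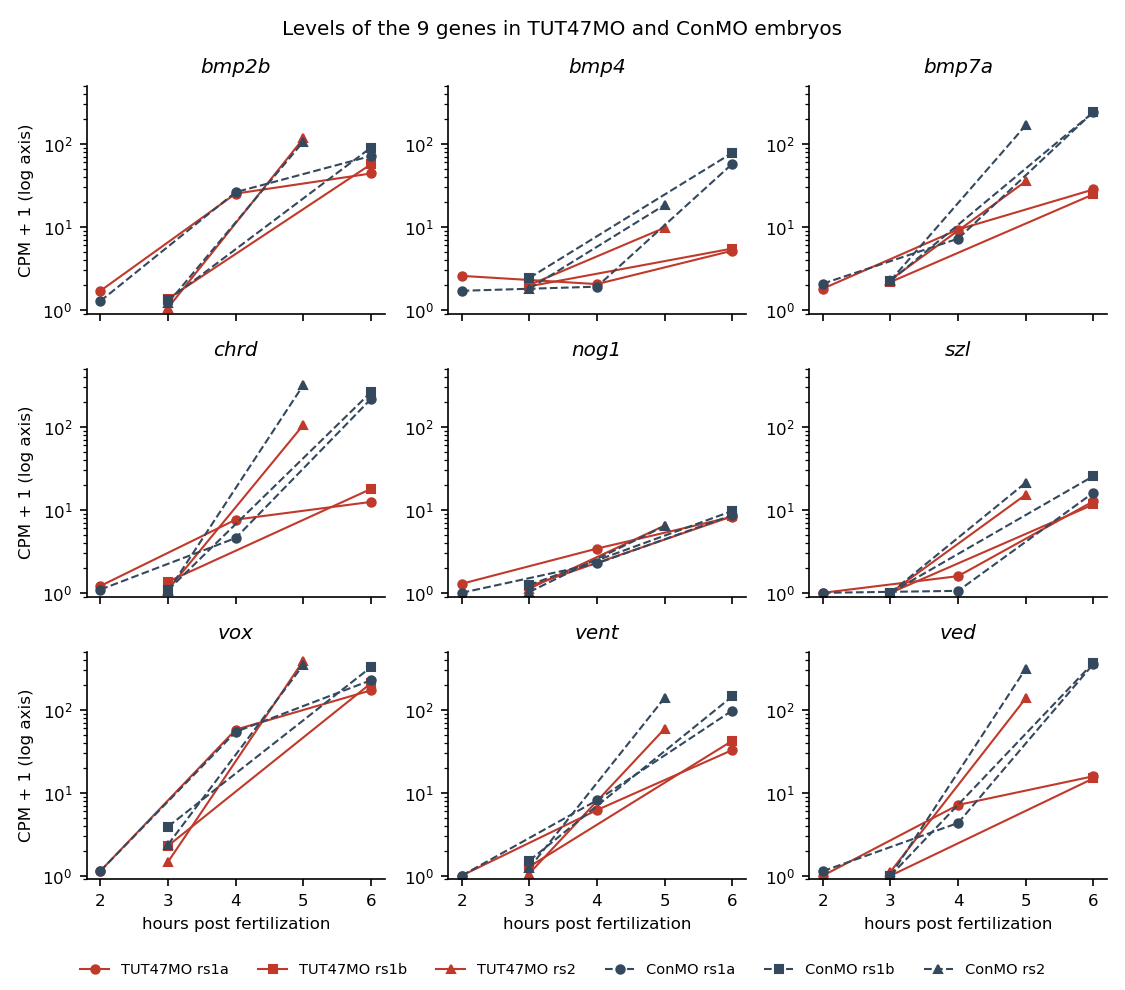
Levels of the 9 genes, as CPM + 1 on a log axis, against hours post fertilization; red solid lines are TUT47MO and dark dashed lines ConMO, and circles, squares and triangles are sets rs1a, rs1b and rs2, 1 library per point. At 6 hpf the red points of bmp4, bmp7a, chrd and ved lie far below the dark ones, such as 14.8 and 13.9 CPM against 356 and 368 CPM for ved, while those of nog1 lie together.

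At 2 and 3 hpf, while levels were still low, the double knockdown changed none of the 9 genes detectably. These pairs mix hours, as vox had 3 ConMO reads at 2 hpf but 73 and 58 at 3 hpf in rs1b and rs2. In early TUT47MO against ConMO libraries limma called 0 of 9 genes and 0% of the 18075 genes tested, with an adjusted p of 1 for each of the 9, and edgeR and DESeq2 also called 0 of the 9. An unadjusted p under 0.05 was found for 1 gene of the 9, and the share of all genes at that threshold was not counted. That gene was vox, with 0.14, 1.29 and 0.47 CPM in early TUT47MO libraries and 0.14, 2.90 and 1.38 CPM in their ConMO partners, a difference of −0.49 (SE 0.20, unadjusted p = 0.0418). The vox level was lower in both 3 hpf pairs and the same to 2 decimals in the 2 hpf pair. At these depths the other genes had 0 to 53 reads per library, so that modest early differences could not be detected.

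At 5 and 6 hpf, 6 of the 9 genes were lower in TUT47MO than in ConMO embryos and none was higher. The 6 were the ligands bmp4 and bmp7a, the regulators chrd and szl, and the repressors vent and ved. Over all genes, 29.5% were called lower and 34.5% higher. Of the genes called, 53.9% were higher under TMM scaling, 45.5% under median-of-ratios scaling and 67.7% where values were used as deposited. Used as deposited, the values had a median change over all genes of 0.32, against 0.088 under TMM. In the same 6 of 9 genes every late TUT47MO level lay below every ConMO level, against 22.3% of all genes tested. The genes bmp2b, nog1 and vox did not pass the test.

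The ligands did not move together. bmp7a had 27.3, 23.8 and 34.6 CPM in late TUT47MO libraries of rs1a, rs1b and rs2, against 243, 241 and 167 CPM in ConMO libraries. Every TUT47MO level was between 9.87 and 20.7% of its ConMO partner, and the change was −2.88 (SE 0.20, adjusted p = 2.83e-05 by limma). bmp4 had 4.18, 4.49 and 8.79 CPM in TUT47MO libraries and 56.6, 77.2 and 17.4 CPM in ConMO libraries. It was lower in 3 of 3 pairs, at 7.38 and 5.82% of ConMO at 6 hpf and 50.5% at 5 hpf, with a change of −2.74 (SE 0.50, adjusted p = 0.00190 by limma). bmp2b, by contrast, had 43.1, 56.0 and 115.5 CPM in TUT47MO libraries and 70.7, 89.7 and 105.9 CPM in ConMO libraries. It was lower in both 6 hpf pairs and slightly higher in the 5 hpf pair, so that the groups overlapped and the change of −0.42 (SE 0.20) had an adjusted p of 0.103. Without set rs2 the bmp2b change was −0.68 with an adjusted p of 0.00356, and under median-of-ratios scaling it was −0.61 with an adjusted p of 0.0369, so that both called it lower. Over the 15 alternatives its adjusted p ran from 0.00356 to 0.910.

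Of the antagonists, chrd was lower than in ConMO libraries and nog1 did not pass the test. chrd had 11.5, 16.9 and 104.7 CPM in TUT47MO libraries, against 216, 261 and 319 CPM in ConMO libraries. It stood at 5.30 and 6.45% of ConMO at 6 hpf and 32.9% at 5 hpf, with a change of −3.20 (SE 0.43, adjusted p = 0.000388 by limma). nog1 had 7.23, 7.37 and 5.46 CPM in TUT47MO libraries and 7.63, 8.69 and 5.39 CPM in ConMO libraries. The levels overlapped, and the change of −0.088 (SE 0.14) had an adjusted p of 0.600. Its sign turned with the deposited scaling, where it was 0.24.

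The protease inhibitor szl had 11.7, 10.6 and 14.3 CPM in TUT47MO libraries, against 15.1, 24.5 and 20.3 CPM in ConMO libraries. The lowest ConMO level lay just above the highest TUT47MO level, and the change was −0.65 (SE 0.18, adjusted p = 0.0128 by limma). The szl call did not hold without set rs1b (adjusted p = 0.134), with the late libraries alone (0.0512), with the deposited scaling (0.356) or with the 4 hpf pair counted as late (0.282). Over the 15 alternatives the adjusted p of szl ran from 0.00670 to 0.356.

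The repressors also split. ved had 14.8, 13.9 and 136.7 CPM in TUT47MO libraries and 356, 368 and 313 CPM in ConMO libraries. At 6 hpf it stood at 4.16 and 3.77% of ConMO and at 5 hpf at 43.7%, and its change of −3.44 (SE 0.59, adjusted p = 0.00130 by limma) was the largest of the 9. DESeq2 gave ved an adjusted p of 0.0561, and over the 15 alternatives it ran from 5.06e-20 to 0.0561. vent had 31.7, 41.2 and 57.9 CPM in TUT47MO libraries, against 96.9, 143.8 and 137.8 CPM in ConMO libraries. It was the most even of the 6 across sets, at 28.7 to 42.0% of ConMO, with a change of −1.53 (SE 0.15, adjusted p = 8.74e-05 by limma). Its neighbour vox had 170.5, 207.5 and 389.9 CPM in TUT47MO libraries and 226, 326 and 346 CPM in ConMO libraries. The vox groups overlapped, and the change of −0.29 (SE 0.20) had an adjusted p of 0.228. Without set rs2, whose late pair went the other way, it was −0.53 with an adjusted p of 0.0309, and over the 15 alternatives the adjusted p ran from 0.0309 to 0.860.

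The 5 hpf pair of rs2 was the least reduced of the 3 late pairs for bmp2b, bmp4, bmp7a, chrd, nog1, vox, vent and ved. For szl it lay between the other two. Set and hour cannot be told apart here, since only rs2 was sampled at 5 hpf. The spread of the paired differences was larger late (median SD 0.334 over all genes) than early (0.117). As the test shares 1 estimate between the phases, late errors tend to be too small. With the 6 late libraries alone, 5 of the 9 genes were called lower, and 4201 genes over the whole table. Leaving out rs1b gave 5 of the 9 and 4082 of all genes, leaving out rs1a 6 and 3696, and leaving out rs2 8 and 5952. In the main fit these numbers were 6 and 5329, so that calls over all genes also moved with the libraries used.

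**Figure D2:**
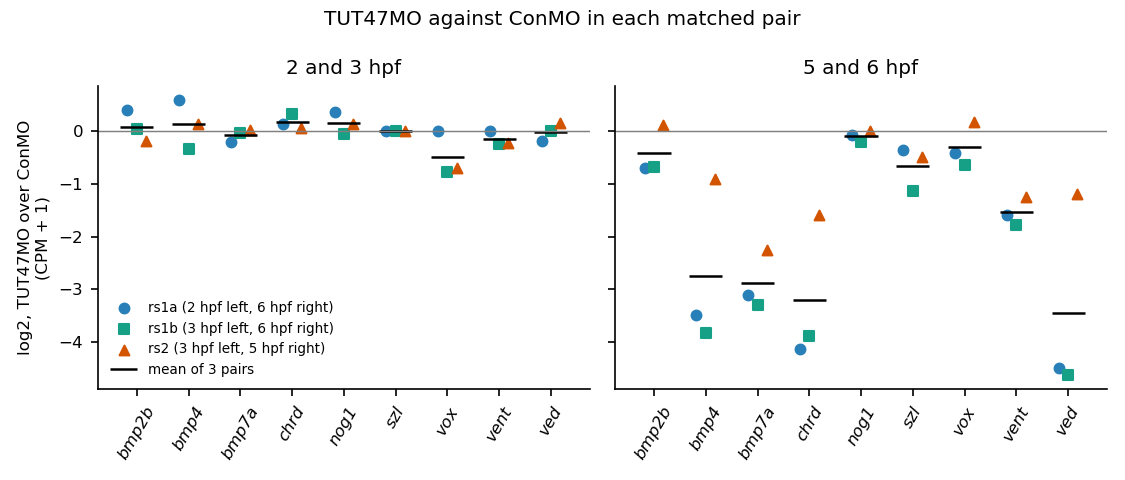
Log2 difference of CPM + 1, TUT47MO over ConMO, of the 9 genes in each matched pair, at 2 and 3 hpf on the left and at 5 and 6 hpf on the right; circles, squares and triangles are sets rs1a, rs1b and rs2, and bars are means of 3 pairs. Early means range from −0.49 for vox to 0.18 for chrd and late means from −3.44 for ved to −0.088 for nog1. The late mean of vox, −0.29, is nearer to 0 than its early one. The rs2 pair at 5 hpf is the highest of the 3 for 8 of the 9 genes.

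Markers of other cell types in the whole embryo moved in the same late libraries. The 14 enveloping layer genes, which mark the outer epithelium, summed to 1391 to 2212 CPM in TUT47MO libraries, against 5838 to 8756 CPM in ConMO libraries. Of the 14, 12 were called lower. The 10 measured yolk syncytial layer genes summed to 255 to 352 CPM in TUT47MO and 692 to 807 CPM in ConMO libraries, with 7 of 9 tested genes lower and 1 higher. The 16 maternal and oocyte genes summed to 3133 to 4696 CPM in TUT47MO and 1566 to 2679 CPM in ConMO libraries, with 13 of 16 higher and 1 lower. No marker of the 3 lists was at 0 in all libraries of either late group. The part of these shifts in the changes of the 9 genes was not tested.

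The late change was set against the early one in the same model of 12 libraries. There were 5 genes with a more negative effect late than early, against 23.4% of all genes: bmp4 (−2.88, SE 0.71), bmp7a (−2.81, SE 0.28), chrd (−3.38, SE 0.60), vent (−1.38, SE 0.21) and ved (−3.43, SE 0.83). Their adjusted p-values by limma ran from 0.000396 for bmp7a to 0.0118 for bmp4. Early levels of these 5 genes were at most 1.58 CPM, where log2(CPM + 1) leaves little room for an early decrease. The difference therefore stays close to the late change, such as −3.43 against −3.44 for ved, and cannot show whether the effect itself depends on phase. The difference for szl was −0.65 with an adjusted p of 0.0627, and those of bmp2b (−0.50), nog1 (−0.24) and vox (0.19) had adjusted p-values of 0.175 to 0.590. The count of 5 was 1 without rs1a, 2 without rs1b, 6 without rs2, and 3 with edgeR and with DESeq2. It was 0 when the 4 hpf pair of rs1a was counted as late, where 0 genes of the whole table were called. For vent the size depended on the scale: early levels were 0, 0.28 and 0.062 CPM in TUT47MO libraries and 0, 0.52 and 0.24 CPM in ConMO libraries. On the count scale of edgeR, the vent difference between phases was −0.38, with an adjusted p of 0.690, and over the 14 alternatives its adjusted p ran from 0.000411 to 0.690.

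Set rs1a separated the 2 morpholinos, with 1 library per condition and hour. Averaged over 2, 4 and 6 hpf, limma called 0 of the 9 genes and 0% of the 17051 genes tested in each of 4 contrasts: TUT4MO against ConMO, TUT7MO against ConMO, TUT7MO against TUT4MO, and TUT47MO against TUT7MO. edgeR and DESeq2 also called 0 of the 9. At an unadjusted p under 0.05 there were 3 of 9 in TUT7MO against TUT4MO, namely szl, vox and vent, and 0 in the other contrasts. The adjusted p of these 3 was 0.939 by limma. The share of all genes at the unadjusted threshold was not counted, so the 3 are not read as a result. These averages mix hours at which the genes are silent with the hour at which they are high.

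At 6 hpf, libraries with the TUT7 morpholino had low levels of the same ligand, antagonist and repressor genes, with or without the TUT4 morpholino. ved had 346 CPM in TUT4MO, 16.9 CPM in TUT7MO, 14.8 CPM in TUT47MO and 356 CPM in ConMO embryos. The TUT4MO level was therefore 97.2% of ConMO and the TUT7MO level 4.75%. bmp7a had 212 CPM in TUT4MO, 30.1 CPM in TUT7MO, 27.3 CPM in TUT47MO and 243 CPM in ConMO embryos. bmp4 had 38.3 CPM in TUT4MO, 3.21 CPM in TUT7MO, 4.18 CPM in TUT47MO and 56.6 CPM in ConMO embryos. For these 3 genes TUT7MO and TUT47MO lay close together, and TUT4MO lay nearer to ConMO.

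The organiser antagonist chrd had 134 CPM in TUT4MO, 24.6 CPM in TUT7MO, 11.5 CPM in TUT47MO and 216 CPM in ConMO embryos. Its level was thus lowest with both morpholinos, at 5.30% of ConMO, with TUT7MO at 11.4% and TUT4MO at 62.1%. vent had 129 CPM in TUT4MO, 37.7 CPM in TUT7MO, 31.7 CPM in TUT47MO and 96.9 CPM in ConMO embryos, and vox had 397 CPM in TUT4MO, 195 CPM in TUT7MO, 170.5 CPM in TUT47MO and 226 CPM in ConMO embryos. szl had 26.2 CPM in TUT4MO, 8.14 CPM in TUT7MO, 11.7 CPM in TUT47MO and 15.1 CPM in ConMO embryos. For vent, vox and szl the TUT4MO library was the highest of the 4. bmp2b had 70.8 CPM in TUT4MO, 67.5 CPM in TUT7MO, 43.1 CPM in TUT47MO and 70.7 CPM in ConMO embryos, so that the double knockdown was the low one. nog1 ranged from 6.78 to 7.63 CPM over the 4 libraries.

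At 4 hpf only vent had lower levels in both libraries with the TUT7 morpholino than in TUT4MO and ConMO embryos. vent had 6.74 CPM in TUT4MO, 3.39 CPM in TUT7MO, 5.18 CPM in TUT47MO and 7.09 CPM in ConMO embryos. TUT7MO was the lowest library for bmp4, bmp7a, nog1, szl, vox, vent and ved, and TUT4MO for bmp2b and chrd. Some of these ranks rest on few reads. In ConMO, TUT4MO, TUT7MO and TUT47MO libraries bmp4 had 16, 15, 15 and 16 reads and szl 1, 7, 0 and 9. The share of all genes lowest in TUT7MO was not counted, so the ranks are not read as a result. vox had 36.1 CPM in TUT7MO and 53.1 CPM in ConMO embryos. bmp2b had 21.7 CPM in TUT4MO, 23.9 CPM in TUT7MO, 24.3 CPM in TUT47MO and 25.3 CPM in ConMO embryos. ved had 4.01 CPM in TUT4MO, 2.42 CPM in TUT7MO, 6.12 CPM in TUT47MO and 3.32 CPM in ConMO embryos. chrd had 3.09 CPM in TUT4MO, 5.43 CPM in TUT7MO, 6.62 CPM in TUT47MO and 3.57 CPM in ConMO embryos. The TUT47MO level was at or above the ConMO level at 4 hpf for bmp4, bmp7a, chrd, nog1, szl, vox and ved. Those of bmp2b and vent were at 95.9 and 73.0% of ConMO. At this hour AC024175.4 took 41.0% of reads in the TUT47MO library and 11.8% in the ConMO library, and its part in these levels was not tested.

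**Figure D3:**
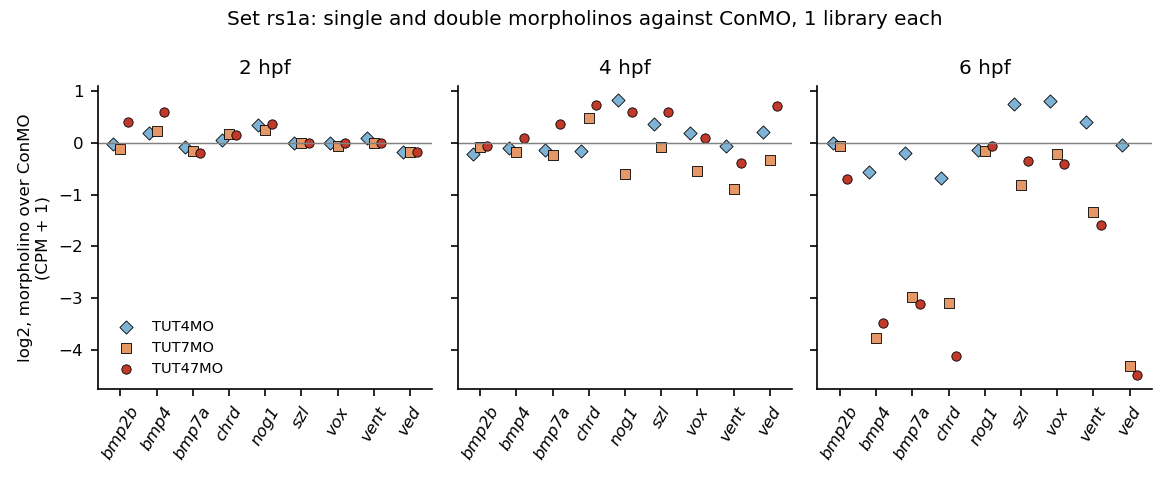
Log2 difference of CPM + 1 of the 9 genes against ConMO of the same hour in set rs1a, at 2, 4 and 6 hpf, for TUT4MO (diamonds), TUT7MO (squares) and TUT47MO (circles), 1 library per point. At 6 hpf TUT7MO and TUT47MO lie far below 0 for bmp4, bmp7a, chrd and ved. For ved they lie together, at −4.32 and −4.50, while TUT4MO lies at −0.040. For chrd they lie apart, at −3.09 and −4.12.

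To test the hours apart, a model with the presence of the TUT7 and of the TUT4 morpholino as terms within each hour was added after the data were seen. It had 3 residual degrees of freedom. With 1 library per condition and hour, these measure departures from adding up and not the spread between replicates. The p-values of this model therefore hold no replicate error. Hours at which the genes are silent enter the same spread, so errors at 6 hpf may be too small. At 6 hpf the TUT7 term was negative and called for 7 of 9 genes, against 25.8% of all genes called lower: ved (−4.39, SE 0.21), bmp4 (−3.35, SE 0.23), chrd (−3.26, SE 0.17), bmp7a (−2.94, SE 0.18), vent (−1.67, SE 0.21), szl (−0.96, SE 0.16) and vox (−0.71, SE 0.22). Adjusted p-values of these 7 ran from 1.68e-05 for ved to 0.0291 for vox by limma. bmp2b (−0.38, SE 0.20) and nog1 (−0.039, SE 0.17) did not pass. The TUT4 term at 6 hpf was negative for chrd (−0.86, SE 0.17, adjusted p = 0.0211) and positive for szl (0.61, SE 0.16, adjusted p = 0.0427), against 7.99% of all genes called lower and 8.46% higher. At 2 and 4 hpf limma called neither term for any of the 9 genes. At an unadjusted p under 0.05 there were 0 genes at 2 hpf and, at 4 hpf, 3 for the TUT7 term (chrd, nog1 and vent) and 3 for the TUT4 term (nog1, szl and ved). The share of all genes at that threshold was not counted, so these counts are not read as a result.

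The model shares its spread between hours and takes the 2 morpholinos to add up, from which vox and bmp4 departed most at 6 hpf. Their TUT47MO effects differed from the sum of the single effects by −1.001 and 0.85. For vox the TUT7MO library was at 86.3% of ConMO, TUT47MO at 75.5% and TUT4MO at 176%. Its TUT7 term thus rests mostly on TUT47MO against TUT4MO. For the TUT7 term, szl lost its call with a pseudocount of 0.1 (adjusted p = 0.0556, within 0.000420 to 0.0556 over 5 alternatives). bmp2b gained one under median-of-ratios scaling (adjusted p = 0.0487, within 0.0487 to 0.365). The szl call of the TUT4 term was lost with the 6 hpf libraries alone (adjusted p = 0.197) and with a pseudocount of 0.1 (0.276), within a range of 0.0201 to 0.276 over 5 alternatives.

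The members differed in how early they came on in control embryos. In the ConMO libraries of rs1a, bmp2b at 4 hpf had reached 35.8% of its 6 hpf level, vox 23.5% and nog1 16.5%. vent stood at 7.32%, bmp7a at 2.56%, chrd at 1.65% and bmp4 at 1.60%. ved stood at 0.934% and szl at 0.373%. Set beside the late TUT47MO pairs of rs1b and rs2, which share no library with this course, the 3 genes furthest on at 4 hpf were the 3 that did not pass the late test, which also holds the rs1a pair. Their mean differences over the 2 pairs were −0.27 for bmp2b, −0.24 for vox and −0.098 for nog1. ved, bmp7a, chrd and bmp4 had −2.91, −2.76, −2.74 and −2.37. szl, the latest of the 9 by this measure, departed from this order with −0.81. Its ConMO level at 4 hpf rests on 1 read, so its place in the order is not firm. Over the 9 genes Spearman's rho was 0.617 and Pearson's r, with the percentage on a log2 scale, 0.649. Both describe 9 genes chosen together and measured in the same libraries.

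**Figure D4:**
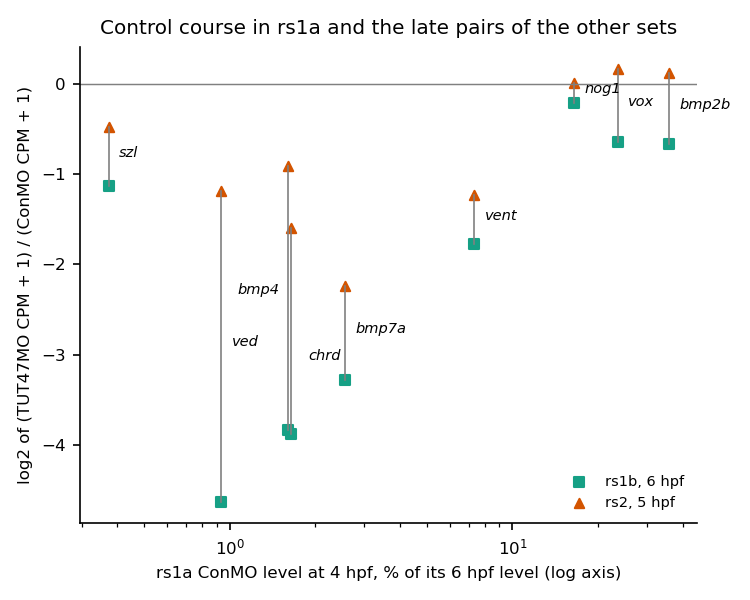
For each of the 9 genes, the log2 difference of CPM + 1 in the late pair of rs1b (squares, 6 hpf) and of rs2 (triangles, 5 hpf), TUT47MO over ConMO, against the rs1a ConMO level at 4 hpf as a percentage of that at 6 hpf (log axis); lines join the pairs of a gene. nog1, vox and bmp2b, at 16.5 to 35.8%, lie near 0, and szl, at 0.373%, lies above ved, bmp4, chrd and bmp7a. The szl percentage rests on 1 read at 4 hpf.

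At 6 hpf in rs1a the level of each of the 9 genes in TUT47MO embryos lay between the ConMO levels at 6 and at 4 hpf, and so did that in TUT7MO embryos, in 9 of 9 genes each. In TUT4MO embryos 5 of 9 did, namely bmp4, bmp7a, chrd, nog1 and ved. All 9 genes rose between these hours in ConMO embryos, so that a small shortfall is enough to place a level there. The share over all genes was not counted, so these counts do not set the 9 apart from other genes. For bmp4, TUT47MO embryos at 6 hpf had 4.18 CPM, against 56.6 CPM at 6 hpf and 0.91 CPM at 4 hpf in ConMO embryos. For nog1, TUT47MO embryos had 7.23 CPM, against 7.63 and 1.26 CPM in ConMO embryos at 6 and 4 hpf. Measured this way, nog1 was close to the 6 hpf control and bmp4 closer to the 4 hpf control.

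Across the 20 libraries, pairs of the 9 genes followed each other to different degrees. On log2(CPM + 1), Pearson's r was highest for chrd and ved (0.992) and for bmp2b and vox (0.988), and lowest for bmp2b and bmp4 (0.678). The shared rise with hour raises all of these values. The genes whose course was most like that of chrd, among 9315 candidates with a mean of at least 5 CPM, were stm (r = 0.997), the Nodal ligand gene ndr2 (0.993) and yy1a (0.990). Those 3 were also the nearest to ved, with r of 0.995, 0.994 and 0.994. Nearest to bmp2b were the planar polarity gene prickle1b (0.994), slc25a22 (0.993) and the Nodal antagonist gene lft2 (0.993). Nearest to vox were noto (0.991), lft2 (0.990) and wnt11 (0.989). Noto and Wnt11 are a notochord transcription factor and a Wnt ligand of gastrulation movements.

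Those nearest to bmp7a were rhoab, polr3gla and mapk12b (r of 0.993, 0.993 and 0.992). Those nearest to bmp4 were kirrel3l, tns3.2 and KRT23 (0.985, 0.985 and 0.984). The keratin genes krt92 (0.991) and krt8 (0.987), with sostdc1a (0.987), were nearest to szl. A keratin gene, krt18 (0.973), also stood near nog1, with mycn (0.975) and lft1 (0.972). A claudin gene, cldne (0.992), stood near vent, with ftr82 (0.992) and fgf17 (0.992). Of these, krt92, krt8, krt18 and cldne are on the list of enveloping layer markers.

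Other genes of the pathway were taken as lists, each chosen by function. The late counts below are to be read against all genes tested, of which 29.5% were called lower and 34.5% higher. Counts near these shares do not set a list apart. Of 9 tested receptor genes, 5 were lower and 3 higher late in TUT47MO embryos, with a median of −0.75 over the list. The type I receptor gene acvr1l, whose product is needed for ventral fates in zebrafish, averaged 229 ± 91.1 CPM in TUT47MO and 449 ± 91.1 CPM in ConMO libraries (SD, n = 3 each), a change of −1.04 (SE 0.15, adjusted p = 0.000607 by limma). bmpr1aa (−0.75) and bmpr1ab (−0.88) were also lower, with adjusted p-values of 0.000298 and 0.00215. bmpr1ba was higher, with 43.4 ± 11.4 CPM in TUT47MO and 10.9 ± 5.99 CPM in ConMO libraries, a change of 1.99 (SE 0.14). Early bmpr1ba levels of rs1a, rs1b and rs2 were 69.4, 75.4 and 60.5 CPM in TUT47MO and 68.3, 76.9 and 54.5 CPM in ConMO libraries. Its level thus fell with time in each group, and less in TUT47MO embryos. Of 8 Smad and Smurf genes, 4 were lower and 1 higher, with a median of −0.79. The transducer gene smad5 had 220, 73.5 and 136 CPM in late TUT47MO libraries of rs1a, rs1b and rs2. Its late ConMO levels were 197, 70.1 and 163 CPM. The transducer genes smad1 and smad9, at lower levels, lay below ConMO in each late pair. smad1 had 0.61, 0.42 and 0.25 CPM in TUT47MO and 6.32, 5.90 and 2.61 CPM in ConMO libraries. smad9 had 0.84, 0.37 and 0.35 CPM in TUT47MO and 2.49, 1.82 and 0.46 CPM in ConMO libraries. The inhibitory Smad gene smad6a had 3.86 ± 2.00 CPM in TUT47MO and 9.94 ± 4.80 CPM in ConMO libraries, a change of −1.15. The ubiquitin ligase gene smurf2 was higher by 0.26, with an adjusted p of 0.0357 by limma.

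Of 5 other ligand genes tested, 3 were higher and 1 lower. bmp15, an oocyte ligand gene, had 50.1 ± 22.5 CPM in TUT47MO and 12.4 ± 10.4 CPM in ConMO libraries, a change of 2.12. gdf6a had 10.3 ± 5.27 CPM in TUT47MO and 2.66 ± 2.38 CPM in ConMO libraries, a change of 1.72. Early bmp15 levels of rs1a, rs1b and rs2 were 110, 91.9 and 130 CPM in TUT47MO and 98.1, 83.6 and 126 CPM in ConMO libraries. Those of gdf6a were 15.7, 14.4 and 30.9 CPM in TUT47MO and 18.9, 14.9 and 29.6 CPM in ConMO libraries. Both levels thus fell with time in each group, and less in TUT47MO embryos. The organiser ligand gene admp was lower, with 17.8 ± 16.8 CPM in TUT47MO and 32.6 ± 4.10 CPM in ConMO libraries (change −1.19, adjusted p = 0.0385 by limma). Among 13 other antagonists and proteases, 6 were lower and 3 higher, with a median of −0.21. The lower ones included sfrp1a (−2.29), bmper (−1.98), the Tolloid-like protease gene tll1 (−1.70) and the pseudoreceptor gene bambia (−1.19).

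Of 27 BMP target and ventral genes, 14 were lower and 4 higher, with a median of −0.72 against 0.088 over all genes. This list also holds smad6a, smad7 and bambia, which are counted in the lists above as well. The posterior homeobox gene cdx4 had 6.07 ± 4.90 CPM in TUT47MO and 77.1 ± 52.5 CPM in ConMO libraries, a change of −3.59 (SE 0.18). The ventral homeobox gene eve1 had 8.60 ± 4.36 CPM in TUT47MO and 100.3 ± 50.7 CPM in ConMO libraries, a change of −3.38. The T-box gene tbx16 (−3.28) and the keratin gene krt4 (−2.70), which is also an enveloping layer marker, were lower too. These 4 were named for the size of their change, and other genes of the list differed. id2a had 52.4, 54.3 and 28.2 CPM in late TUT47MO libraries of rs1a, rs1b and rs2, against 32.8, 29.9 and 15.3 CPM in ConMO libraries. id3 was higher than ConMO in both 6 hpf pairs and lower at 5 hpf. id1 was lower in both 6 hpf pairs and slightly higher at 5 hpf. Of the dorsal organiser genes, 12 of 16 were lower and 1 higher, with a median of −0.86. They included lhx1a (−3.12), frzb (−1.64), foxa3 (−1.19) and foxa2 (−1.12), also named for the size of their change. By contrast, noto, dharma and ndr1 were higher in TUT47MO than in ConMO embryos in each late pair. noto had 92.7, 127 and 112 CPM in late TUT47MO libraries of rs1a, rs1b and rs2, against 80.5, 83.4 and 109 CPM in ConMO libraries.

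Of 6 tested genes that act upstream of the ventral repressors, 3 were lower and 2 higher. The maternal and zygotic factor gene pou5f3, which activates early zygotic genes, had 510 ± 90.7 CPM in TUT47MO and 1727 ± 220 CPM in ConMO libraries, a change of −1.77 (SE 0.14), and ctnnb1, for the Wnt effector beta-catenin, changed by −1.58. sox19b was higher, with 260 ± 63.2 CPM in TUT47MO and 97.5 ± 28.7 CPM in ConMO libraries, a change of 1.41. Early sox19b levels of rs1a, rs1b and rs2 were 381, 324 and 358 CPM in TUT47MO and 416, 367 and 374 CPM in ConMO libraries. Its level thus fell with time in each group, and less in TUT47MO embryos. nanog was higher by 0.91, with an adjusted p of 0.00161 by limma. No gene of these lists was called in the early comparison.

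**Figure D5:**
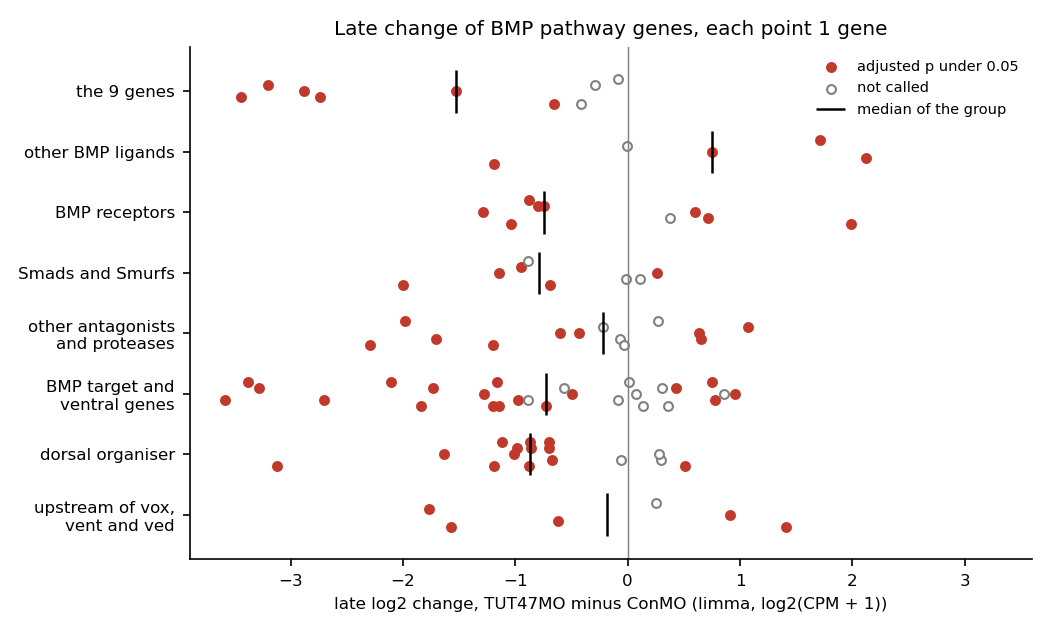
Late log2 change, TUT47MO minus ConMO, of the 9 genes and of the tested genes of 7 pathway lists, 1 point per gene; filled points passed an adjusted p of 0.05, open points did not, and vertical bars are group medians. The median was −1.53 for the 9 genes, −0.72 for BMP target and ventral genes, −0.86 for dorsal organiser genes and 0.75 for the other ligands.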

How the data were processed

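Stranded total RNA, depleted of rRNA, was sequenced per the labels' protocols. STAR 2.5.3a, RSEM and GRCz10 are named per the submitters' processing notes, and their settings are not stated there. The authors' deposited values are estimated counts in rs1b and a signal, estimated counts times 1 factor per library, in rs1a (0.75 to 1.274) and rs2 (0.382 to 2.032). The spacing of low values gave the factor, which was divided out; 84.3 to 90.7% of the low values (at most 20 reads) then came out whole, within 0.02. Of 32660 rows, 555 (1.7%) had no name and were left out. No spike-in values were used here, so no change is an absolute amount.

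Reads were scaled by TMM over all 20 libraries (edgeR 4.0.16) and filtered with filterByExpr (minimum count 10). limma 3.58.1 (R 4.3.3) with a mean-variance trend tested log2(CPM + 1) over all genes. The TUT47MO model held 12 libraries with the pair of set and hour as a block, which left 4 residual degrees of freedom; the series text calls the sets independent. Partners deviated together from their group means (correlations 0.456 to 0.930), but groups mix hours, so sets alone need not give this. The ConMO model had set as a block and the rs1a model hour as a term. Alternatives were median-of-ratios and deposited scaling, TMM within a comparison, other filters and pseudocounts (0.1 and 5), edgeR, DESeq2 1.42.0, no block, each set or hour left out, and other hours. The scripts were tested on simulated data.

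By rule, up to 4 called genes per list with the largest late change and a late mean of at least 5 CPM were named. For each of the 9 genes, the 3 most alike over 20 libraries were named too. From the lists, smad1, smad5, smad9, id1, id2a, id3, noto, dharma and ndr1 were added outside the per-list rule. Members and lists (158 symbols) were chosen with earlier results of these data known. No sequence or coordinate is given, since no genome of the files' build was used here.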

Additional observations from a re-analysis of the deposited data

Results flagged for a closer look

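For 5 of the 9 genes the TUT47MO effect differed between the late (5 and 6 hpf) and the early (2 and 3 hpf) pairs by the test of that difference (limma, adjusted p under 0.05). On the log2 scale the late effect minus the early effect was −2.88 for bmp4, −2.81 for bmp7a, −3.38 for chrd, −1.38 for vent and −3.43 for ved. As their early levels were at most 1.58 CPM, log2(CPM + 1) left little room for an early decrease. These differences therefore largely repeat the late changes. Late TUT47MO levels were lower than ConMO levels in 3 of 3 pairs for each of these genes. With edgeR, vent (−0.38, adjusted p = 0.690) and ved (−3.95, adjusted p = 0.478) did not pass. Over the 14 alternatives the adjusted p ran from 0.000411 to 0.690 for vent and from 6.42e-10 to 0.478 for ved. No group held more than 3 libraries, so no single library was tested for standing apart.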

How the results depend on the processing

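Late calls of bmp4, bmp7a, chrd and vent held in all 15 alternatives, and those of ved in 14 and szl in 11. Without rs2, bmp2b and vox were called lower as well, and under median-of-ratios scaling bmp2b was. Signs turned where changes were small. The deposited scaling, used in several of these cases, does not correct rs1b libraries for depth. With the deposited scaling the late change of vox was 0.075 and of nog1 0.24, the late minus early difference of nog1 0.069, and the TUT7 term of nog1 at 6 hpf 0.050. With the 4 hpf pair counted as late, nog1 was 0.083. The late minus early difference of vox was −0.011 under median-of-ratios scaling and −0.10 with a pseudocount of 5, and −0.14 to 0.49 with 1 set left out. The deposited scaling called 3165 genes lower late, 2523 lower and 2815 higher for late minus early, 2046 lower and 2596 higher in late against early ConMO, and 3 higher early; the early libraries alone called 1 higher. For late minus early, members called lower numbered 3 with edgeR and with DESeq2, whose counts over all genes are not given here. With the 4 hpf pair as late they numbered 0, where 0 genes were called in each direction. Leaving out 1 set gave 1 to 6 members, 1286 to 5275 genes lower and 1610 to 5913 higher; fewer samples remain in these fits.

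Without the pairing as a block, 4033 genes were called higher late, and 2438 lower and 2056 higher for late minus early. No call of the 9 genes changed without the block.

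In rs1a, the model by hour called 7 members lower for the TUT7 term at 6 hpf (4394 genes lower and 5399 higher). For the TUT4 term at 6 hpf it called 1 lower and 1 higher (1363 and 1443 genes). Each term also covers the TUT47MO library. DESeq2 called 1 gene lower for TUT4MO, 2 lower for TUT7MO, and 1 lower and 3 higher for TUT7MO against TUT4MO. Leaving out an hour gave 0 to 2 genes higher for TUT7MO. The TUT4 term lost its 1 higher member, leaving 0, with a pseudocount of 0.1 (869 genes lower) and with the 6 hpf libraries alone (687 lower and 395 higher). The cause of these differences was not tested. Depth limits the early phase, where most of the 9 genes had under 20 reads.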
